A study of Drosophila melanogaster with 12 samples.

Results

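The 10 genes described here encode proteins of the contractile apparatus of muscle: *Mhc*, *Mlc1*, *Mlc2*, *Prm*, *wupA*, *up*, *Tm2*, *Act57B*, *sls* and *Mlp60A*. They were taken by gene symbol from a table of 18039 features, 14303 of them genes, and all 10 were found once. RNA was sequenced from ovaries of 4-day-old *Drosophila melanogaster* females, about 5 pairs per sample in the methods and about 5 ovaries in the labels. *D1* mutant females (D1 Kyoto over D1 Bsc666, a chromosomal deficiency that spans *D1*) gave 3 libraries and control females (D1 Kyoto over the balancer TM6C) gave 3, and both genotypes were in a *chk2* mutant background. A further 6 small RNA libraries were not used here.

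The sample labels name ovaries as the tissue and germline cell as the cell type, while the design text of the series speaks of testes. Whole ovaries also hold follicle cells and the muscle sheaths that surround each ovariole and the whole organ. In flies these sheaths are contractile and move developing egg chambers along the ovariole. In striated muscle, thick filaments of myosin slide along thin filaments of actin, and the troponin complex with tropomyosin makes this movement depend on calcium. The members are active in many muscles of the fly, so none of them by itself marks the ovarian sheath.

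The usable values are the authors' means of normalized counts, each taken over the libraries of both genotypes together. They carry no SD and no value per library, depth per library is not known from them, and mutant and control ovaries were therefore not compared. A mean normalized count is the number of reads on a gene after each library is scaled to a common size. Because long genes collect more reads, genes were ranked against each other per kb, that is, per 1000 bases of all annotated exons merged, and mean normalized counts are given beside this as the values from which it was computed. As the ovary was sequenced in bulk, a low level can stand for few muscle cells or for little RNA per cell, and these cannot be told apart. The mean for *D1* itself was 6038 normalized counts, which, being pooled over genotypes, does not check the labels.

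In ovaries the levels of the 10 muscle genes reached from 18.4 per kb for *sls* to 1341 per kb for *Mlc2*, a 72.9-fold span. Their median was 333 per kb, against 216 for the median of 14271 genes with a known length, which 6 of the 10 members exceeded. Not divided by length, the members had 122 (*Tm2*) to 3974 (*Mhc*) mean normalized counts, and 8 of the 10 lay above the median of all 14303 genes, which was 360. That count depended on which genes were ranked: among the 10743 genes with at least 10 mean normalized counts the median was 1311, and 3 members lay above it. The median percentile of the members was 58.9 among all genes and 45.3 among these. Summed, the members held 13150 mean normalized counts, or 0.0288% of the total over genes.

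**Figure D1:**
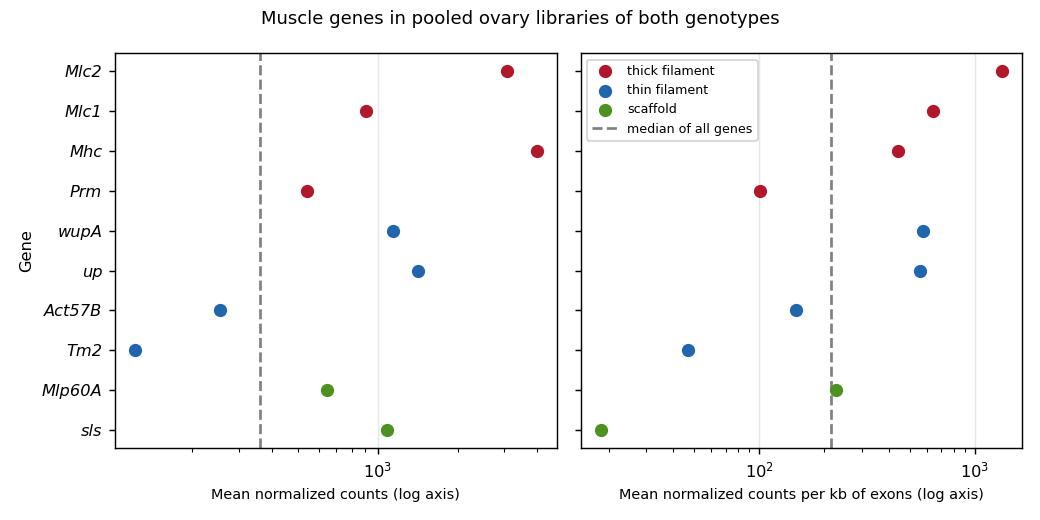
Mean normalized counts (left) and mean normalized counts per kb of merged exons (right) of the 10 muscle genes, pooled over the libraries of both genotypes, on log axes; each point is 1 gene, coloured by role, and the dashed line is the median of all genes (360 and 216). The myosin light chain gene *Mlc2* is highest per kb at 1341, and *Tm2* and *Act57B* lie left of the dashed line in both panels.

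Thick filament genes included the highest levels per kb. *Mhc*, the muscle myosin heavy chain gene (FBgn0264695, chr2L:16766566-16788766, plus strand), had 3974 mean normalized counts and 439 per kb over 21 annotated transcripts. *Mlc2* (FBgn0002773, chr3R:30171438-30174551, minus strand), which encodes the regulatory light chain of muscle myosin, had 3066 mean normalized counts and 1341 per kb, 3.06 times the level of *Mhc*. *Mlc1* (FBgn0002772, chr3R:27657078-27660177, minus strand), which encodes the essential (alkali) light chain, had 903 mean normalized counts and 638 per kb, 1.45 times that of *Mhc*. Both light chain genes thus stood above the heavy chain gene once length was taken into account, whereas *Mhc* was first before that. *Prm* (FBgn0003149, chr3L:8732858-8745310, minus strand) encodes paramyosin, a rod protein of the filament core, and had 542 mean normalized counts and 101 per kb, 0.231 times the level of *Mhc*. Annotated *Prm* transcripts reach from 1695 to 3661 bases and their reading frames from 921 to 2637. Over the shortest transcript the level of *Prm* was 320 per kb.

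Thin filament genes fell into a troponin pair at similar levels and a lower pair of filament proteins. *wupA* (FBgn0283471, chrX:18105568-18116922, minus strand) encodes troponin I, the inhibitory subunit of the troponin complex, and had 1142 mean normalized counts and 577 per kb. *up* (FBgn0004169, chrX:13593474-13602578, minus strand) encodes troponin T, the subunit that binds tropomyosin, and had 1415 mean normalized counts and 559 per kb. The ratio of *wupA* to *up* was 1.03 per kb of merged exons, 1.02 over the longest transcripts and 1.19 over coding length. *Act57B* (FBgn0000044, arm 2R, 20944021 to 20946431, plus strand), a muscle actin gene, had 256 mean normalized counts and 148 per kb, 0.338 times the level of *Mhc*. *Tm2* (FBgn0004117, chr3R:15310193-15315197, plus strand), a tropomyosin gene, had 122 mean normalized counts and 46.7 per kb, 0.106 times the level of *Mhc*. Per kb, *Tm2* was above *sls* alone.

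The remaining members encode structural proteins other than those of the filaments. *sls* (FBgn0086906, chr3L:2039681-2115611, minus strand) encodes very large titin-like elastic proteins, kettin among them, that extend from the Z-disc, where thin filaments are anchored, and had 1086 mean normalized counts. Its merged exons span 58996 bases, 41.7 times those of *Mlc1*, the shortest, so its level was 18.4 per kb. Over its shortest annotated transcript, of 15263 bases, the level was 71.1 per kb, still the lowest of the 10. *Mlp60A* (FBgn0259209, arm 2R, 24074602 to 24078223, plus strand), a muscle LIM protein gene, had 644 mean normalized counts and 227 per kb. Its transcripts reach from 440 to 2468 bases, and over the shortest the level was 1464 per kb, the highest of the 10.

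**Figure D2:**
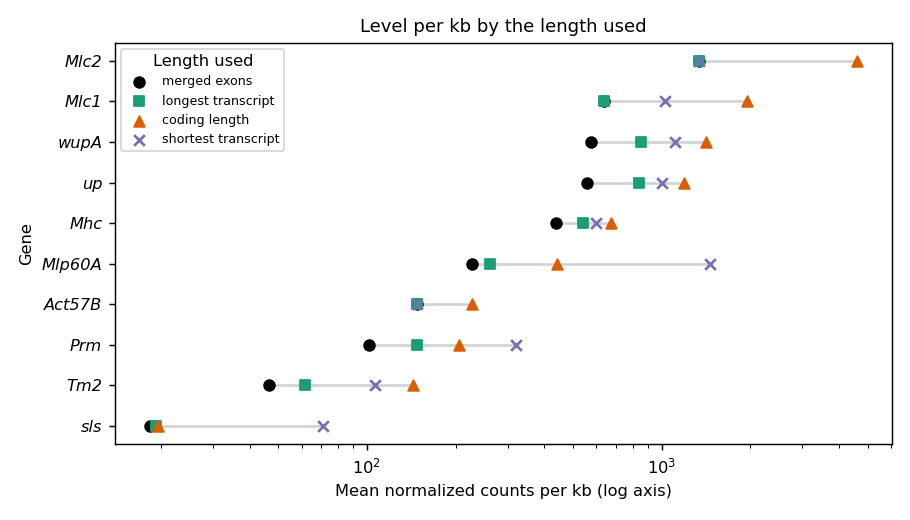
Mean normalized counts per kb (log axis) of each muscle gene when the length is that of merged exons (circles), the longest transcript (squares), the longest coding sequence (triangles) or the shortest transcript (crosses), pooled over the libraries of both genotypes. *Mlc2* is at 1341 to 4603 and *sls* at 18.4 to 71.1, while *Mlp60A* moves from 227 with merged exons to 1464 with the shortest transcript.

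By merged exons the order of the levels per kb was *Mlc2*, *Mlc1*, *wupA*, *up*, *Mhc*, *Mlp60A*, *Act57B*, *Prm*, *Tm2* and *sls*. Coding length gave the same place to all 10 genes and the longest transcript to 7, the exceptions being *Mlc1*, *wupA* and *up*. As no spread between libraries is known, neighbours in this order cannot be said to differ. Which transcripts were used in these ovaries is not given by values per gene.

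The starts of these genes were searched for binding sequences of MEF2, a transcription factor of muscle differentiation, and for the E-box CANNTG, which factors such as Twist bind. The window ran from 250 bases before to 50 after the outermost annotated start, and both motifs read the same on both strands. A MEF2 site was present for 1 of the 10 members, *Act57B*, against 14.5% of 13968 protein-coding genes. With every annotated start searched, 3 members had one, *Mhc* and *up* in addition, against 17.0% of genes. An E-box was present for 8 members and 77.2% of genes, *Mlc2* and *Tm2* being without one. Within these windows, neither motif thus set the members apart from genes in general. Sequence outside the windows was not searched, and 10 genes are too few to show a small difference. The 250 bases before 3 of these starts are given 5′ to 3′ from the release 6 genome, in lower case with MEF2 sites in capitals. The 3 are examples and not typical starts, as those of *Mhc* and *up* were picked because they hold MEF2 sites. *Act57B*, the member with a site at its outermost start, is not shown. Those of *Mhc* (chr2L:16767527-16767776, plus strand) and *up* (chrX:13601655-13601904, minus strand) precede internal starts and lie outside annotated exons of these genes, and that of *Mlc2* (chr3R:30174552-30174801, minus strand), the gene with the highest level per kb, has neither motif.
Mhc: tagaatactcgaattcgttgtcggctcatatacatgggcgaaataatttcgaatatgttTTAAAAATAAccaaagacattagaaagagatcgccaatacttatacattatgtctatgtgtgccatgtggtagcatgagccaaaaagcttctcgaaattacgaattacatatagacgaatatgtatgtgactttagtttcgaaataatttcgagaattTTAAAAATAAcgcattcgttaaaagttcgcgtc
up: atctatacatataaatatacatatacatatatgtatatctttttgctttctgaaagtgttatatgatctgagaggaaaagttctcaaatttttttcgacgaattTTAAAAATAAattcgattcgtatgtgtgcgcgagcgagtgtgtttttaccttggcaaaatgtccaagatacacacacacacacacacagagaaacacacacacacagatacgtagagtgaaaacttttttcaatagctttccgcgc
Mlc2: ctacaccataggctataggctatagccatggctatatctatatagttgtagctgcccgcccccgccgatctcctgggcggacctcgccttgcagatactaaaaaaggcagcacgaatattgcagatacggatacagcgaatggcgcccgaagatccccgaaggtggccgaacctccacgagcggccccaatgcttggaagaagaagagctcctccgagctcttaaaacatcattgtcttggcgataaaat
Relative to the start, the sites of *Mhc* begin at -191 and -33 and that of *up* at -146, and the matched letters are the same in both genes. A match describes these letters and does not show that MEF2 was bound.

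Several members have close relatives that serve the cytoskeleton of other cells, and reads of near-identical copies can be shared in counting. *Mhc* stood at 439 per kb and *zip*, the non-muscle myosin heavy chain gene, at 965, a ratio of 0.455. *Mlc2* had 1341 per kb against 3778 for *sqh*, the non-muscle regulatory light chain gene, a ratio of 0.355. *Mlc1* had 638 per kb against 5288 for *Mlc-c*, the cytoplasmic essential light chain gene, a ratio of 0.121. Myosin genes of muscle were thus lower than their non-muscle relatives in each of these pairs, by 2.20-fold to 8.28-fold. *Tm2* had 46.7 per kb against 1756 for *Tm1*, a ratio of 0.0266, which was 0.0109 over the longest transcripts and 0.0177 over coding length. *Tm1* makes both muscle and cytoplasmic tropomyosins, and values per gene do not separate them. *Mlp60A* had 227 per kb against 68.6 for *Mlp84B*, the other muscle LIM protein gene, a ratio of 3.30, and their proteins share 67.1% of aligned residues.

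Of the 5 actin genes in the table, the cytoplasmic actin genes *Act42A* and *Act5C* were highest, at 18761 and 4809 per kb, and *Act57B* followed at 148 per kb. The other muscle actin genes measured were at 16.7 per kb for *Act87E* and 3.59 per kb for *Act88F*, the actin of indirect flight muscle. Per kb, *Act57B* stood 8.86 times above *Act87E* and 41.3 times above *Act88F*, and 32.4-fold below *Act5C* and 126-fold below *Act42A*. *Act88F* had only 5.73 mean normalized counts, so the ratio to it rests on few reads. The actin encoded by *Act57B* is 376 residues long and shares 96.3% of them with those of *Act5C* and *Act42A* and 99.2% with that of *Act87E*. In spite of this, the longest exact run of exon bases shared by *Act57B* with any of these genes was 62, shorter than a read of 150 bases.

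**Figure D3:**
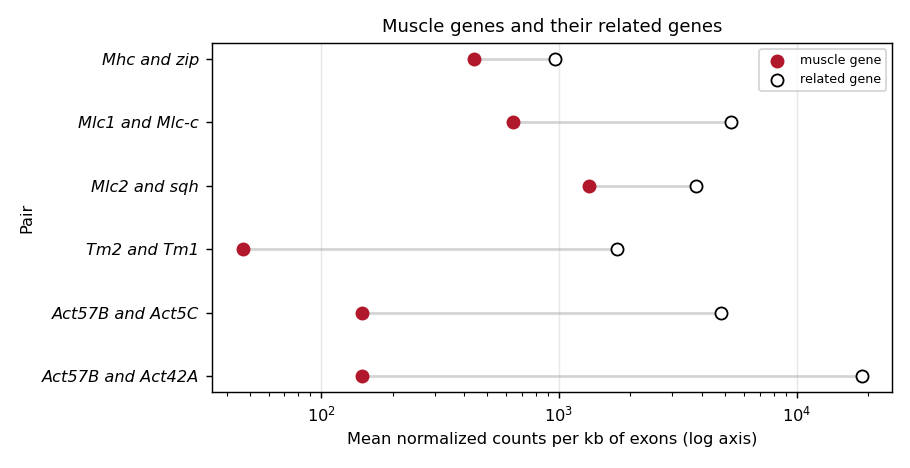
Mean normalized counts per kb of merged exons (log axis) for a muscle gene (filled) and a related gene (open) in each of 6 pairs, pooled over the libraries of both genotypes. Every filled point lies left of its open partner, from 2.20-fold for *Mhc* and *zip* to 126-fold for *Act57B* and *Act42A*.

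Windows of 150 exon bases, the length of a read, were searched for further copies in the genome. Each window lay within 1 unbroken stretch of exon, so shorter exons and reads across splice junctions were not covered. For *wupA* this left 427 windows over 1978 exon bases. For 9 of the 10 members no window searched occurred a second time. In *sls*, 6.73% of 53608 windows did, and 0 of these copies lay outside *sls* itself. *Act57B* shares 96 exon bases with a small nucleolar RNA gene on the same strand, which had 62.9 mean normalized counts. *sls* shares 1089 exon bases with an antisense RNA gene, which had 13.8 mean normalized counts. Whether the counting used strand is not given in the sources used here, so reads over these bases may be divided between the genes.

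Other genes of the sarcomere were read from a list of 24, of which 22 were in the table. Their median was 65.2 per kb, against 333 per kb for the members, and 6 of the 22 lay above the median gene, against 6 of the 10 members. Not divided by length, 13 of the 22 and 8 of the 10 members lay above it, so the gap depends on length. The 22 also include the 4 genes of indirect flight muscle that are set apart below. The highest were *Tm1* at 1756 per kb and *Actn*, the alpha-actinin gene, at 1343 per kb, both of which also serve cells other than muscle. The lowest were *fln*, which encodes the flight muscle protein flightin, at 2.14 per kb and *TpnC41C*, a troponin C gene, at 2.47 per kb. Their mean normalized counts were only 2.78 and 4.65. Troponin C binds the calcium that switches contraction on and is the partner of the products of *wupA* and *up*. Of 5 troponin C genes *TpnC73F* was highest at 362 per kb, and all 5 together reached 507 per kb, beside 577 for *wupA* and 559 for *up*. How near these values lie depends on the length used. The ratio of *wupA* to *TpnC73F* was 1.59 by merged exons, 2.34 by the longest transcripts and 1.71 by coding length. That of *up* to *TpnC73F* was 1.54, 2.30 and 1.44.

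Of 10 genes for excitation and calcium handling, all in the table, 4 lay above the median gene per kb, and the list's median was 58.2 per kb. *Cam*, the calmodulin gene, was highest at 5214 per kb, followed by *Stim*, the sensor of calcium stores, at 3189 per kb. *SERCA* (437 per kb) and *Itpr* (351) were the others above the median gene. Bulk values do not tell whether muscle or other cells made the RNA of these genes. The lowest were *Ca-alpha1D*, a voltage-gated calcium channel gene, at 3.13 per kb and *RyR*, the calcium release channel gene of muscle, at 7.63 per kb. The sarcolamban genes *SclA* and *SclB* are listed with an identical mean of 63.4 normalized counts, so they are not separate measurements. Of 12 regulators of muscle development 9 were in the table, with a median of 5.30 per kb. None of the 9 lay above the median gene per kb, while 3 did by mean normalized counts, and 5 had under 10 mean normalized counts. *how*, which encodes an RNA-binding protein, and *Mef2*, which encodes the factor named above, were highest at 173 and 168 per kb, and *salm* and *vg*, selector genes of flight muscle, were lowest at 0.118 and 0.545 per kb. Of 14 genes for attachment and basement membrane, which serve follicle cells and other epithelia as well as muscle, 13 lay above the median gene per kb. *parvin* and *Ilk*, which encode partners in the complex that links integrins to actin, were highest at 2000.2 and 1737 per kb. The integrin gene *if* (118) and the perlecan gene *trol* (273) were lowest per kb.

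To check the label, the members were set beside genes that mark other cells. Genes listed for indirect flight muscle, a muscle of the thorax, had a median of 3.03 per kb. For 3 of the 4, mean normalized counts were under 10, so their levels rest on few reads. None of the 4 lay above the median gene: *fln* was at 2.14, *TpnC41C* at 2.47, *Act88F* at 3.59 and *TpnC4* at 36.2 per kb. Of the members *sls*, at 18.4 per kb, lay within that range while the other 9 lay above it. Germline markers had a median of 2603 per kb and follicle cell markers a median of 39538 per kb, against 333 per kb for the members. The follicle cell median lies between the yolk protein genes *Yp3* (34886 per kb) and *Yp1* (44191), and *Yp2* (100089) is also on that list. Bulk values do not tell which cells or tissue made yolk protein RNA. In the germline *nos* (15548 per kb) and *osk* (10290) were highest and *grk* (486) and *bcd* (691) lowest. In follicle cells *Cp36* (126981 per kb) and *Cp38* (105989) were highest and *Vm26Ab* (1309) and *tj* (185) lowest, and *tj*, unlike the other 7 follicle cell markers, lay below the median gene. Of 9 testis markers in the table, 8 had under 10 mean normalized counts, and the exception, *mia*, was at 228 per kb. The median of the testis markers was 2.09 per kb, far below that of the follicle cell markers. These levels match the ovaries of the sample labels and not the testes of the design text.

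Markers of tissues outside the ovary were present too, and per kb of merged exons 1 of them exceeded every member. This was the gut gene *alphaTry*, which encodes a digestive trypsin, at 1443 per kb, against 1341 per kb for *Mlc2*. By coding length *alphaTry* was at 1616 per kb, below *Mlc2* (4603) and *Mlc1* (1941). Not divided by length, *alphaTry* had 1241 mean normalized counts, below *Mhc* (3974), *Mlc2* (3066) and *up* (1415). The 6 gut markers in the table had a median of 200 per kb, against 333 per kb for the members, and 3 of the 6 lay above the median gene. After *alphaTry* came *Jon99Cii* at 659 per kb, and *Mal-A1* (90.2) and *Amy-p* (22.04) were lowest. Of the fat body markers *apolpp*, the lipoprotein gene, was highest at 372 per kb, within the range of the members, while the median of the 7 was 2.86 per kb. Hemocyte markers, 4 in the table, had a median of 73.4 per kb, with *Pxn* (140) and *srp* (132) highest and *Hml* (15.2) and *NimC1* (7.32) lowest. Tracheal markers had a median of 18.9 per kb and neuronal markers 0.987 per kb. What part muscle of the gut or of other tissue had in the levels of the members was not tested, and no gene used here separates ovarian sheath from visceral muscle of other organs.

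**Figure D4:**
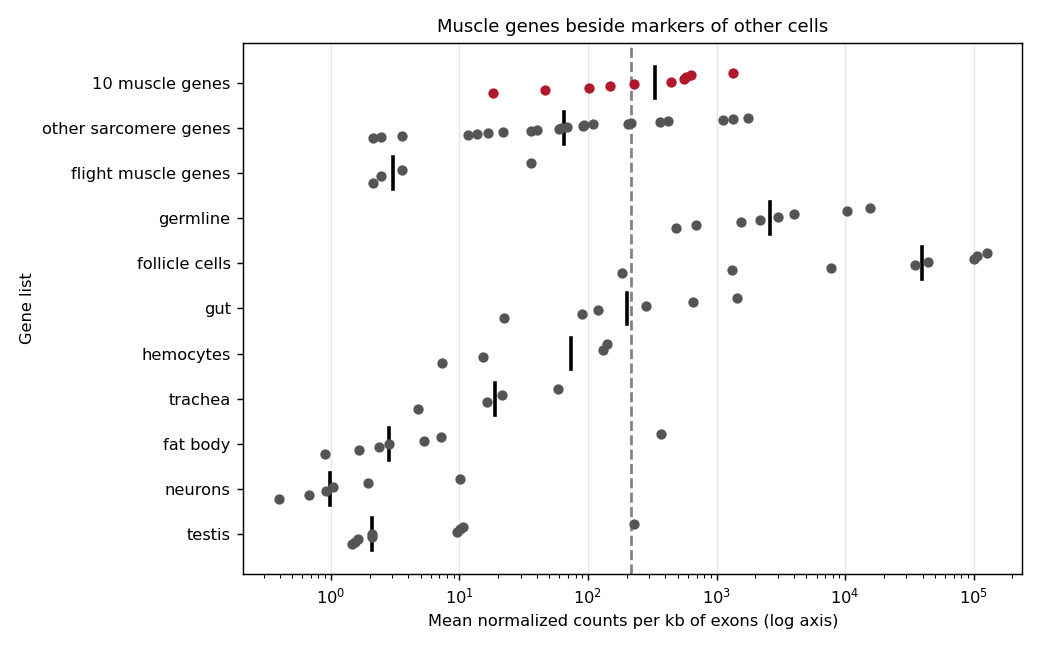
Mean normalized counts per kb of merged exons (log axis) for the 10 muscle genes (red) and for other gene lists (grey), pooled over the libraries of both genotypes; each point is 1 gene, black bars are list medians and the dashed line is the median of all genes (216). The muscle genes have a median of 333, below the germline (2603) and follicle cell (39538) markers and above the flight muscle genes (3.03).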

How the data were processed

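Per the labels, rRNA was depleted and both ends of fragments were read over 150 bp. The authors cleaned the reads, aligned them to BDGP6.32 with STAR, counted them on genes and transposons with TEtranscripts and compared the genotypes with DESeq2 1.37.4. The deposited signal used here is the authors' mean of the normalized counts over the RNA-seq libraries. The table's other columns hold the authors' comparison of *D1* mutant with control (log2 fold change, standard error, test statistic and p-values, with marks for raised and lowered genes) and were not used, so no test was run. Of 18049 rows, 9 without a name and 1 repeat were left out. For lengths and positions the gene models of Ensembl 115 (BDGP6.54) were used, which are of the same genome release 6 as the build of the study, and 14241 genes matched by identifier and 30 by symbol. The genome sequence was that of RefSeq release 6. Levels were divided by the length of merged exons in kb. Proteins were translated from the longest annotated coding sequences, in place of a RefSeq protein table, and aligned globally with Biopython 1.88 (BLOSUM62). Motif, window and copy searches were tested on simulated sequences. The genes named are the members, the related genes and actins, and, of each other list, mainly the 2 highest and 2 lowest per kb, any others being chosen after their values were seen. The members and lists were chosen with earlier results of these data known.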

Additional observations from a re-analysis of the deposited data

How the results depend on the processing

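The order of the 10 muscle genes by level per kb kept 7 places with the longest transcript and 10 with coding length, but 1 place without division by length and 3 with the shortest transcript, an alternative chosen after seeing the data. Among genes, the median percentile of the members was 58.9 by mean normalized counts, 53.7 per kb and 45.3 when only the 10743 genes with a mean of at least 10 normalized counts were ranked. Against the median gene of that smaller set, with 1311 mean normalized counts, 3 members were higher, and per kb over all genes 6 were. A MEF2 site was found for 1 member with the 250 bases before the start alone, for 5 with 1 mismatch allowed, beside 73.5% of all genes, and for 3 at every annotated start, also chosen after seeing the data. Leaving out a library was not possible, because the values are means over all libraries. Depth per library, replicate error and a difference between genotypes cannot be given from these values, and each level is limited by the choice of gene model.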
